A study of Homo sapiens with 3 samples.

Results

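The DNA replication and nucleotide synthesis genes examined here are 39 genes, chosen by name, whose products license replication origins, unwind and copy DNA, make its deoxynucleotide precursors, or switch those genes on. All 39 symbols were found among the 36601 genes listed for each library. They were measured in OVCAR3, an established cell line of high-grade serous ovarian carcinoma, by droplet single-cell RNA sequencing that counts unique molecular identifiers (UMIs) near the 3′ end of transcripts. There were 3 libraries, 1 per condition, all treated for 48 h: DMSO, the solvent control; RAC1i, 50 µM of NSC23766, which inhibits activation of the GTPase RAC1; and Combo, 50 µM of NSC23766 with 5 µM of GSK126, an inhibitor of the histone methyltransferase EZH2. EZH2i alone was not analysed here.

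With 1 library per condition no test between conditions was possible, and no p-value is given. Intervals are 95% intervals that cover counting error only and not the spread between cultures. After filtering, 7531 DMSO, 10215 RAC1i and 8239 Combo cells remained, with medians of 26750, 20989 and 24953 UMIs per cell, and 23, 15 and 21 barcodes were shared by RAC1i and DMSO, Combo and DMSO, and Combo and RAC1i. The median mitochondrial share of UMIs was 5.60% for DMSO cells but only 1.66% and 1.58% for RAC1i and Combo cells. Leaving mitochondrial genes out of the totals would shift every log2 ratio over DMSO by -0.07. This scaling and a mitochondrial limit of 10% were tried, and any other part of that difference in the results was not tested. Levels are given as CPM, the UMIs of a gene per 1e6 UMIs of the kept cells, always in the order DMSO, RAC1i and Combo where 3 values follow each other. All 10 epithelial and serous markers had UMIs in every library, and all 10 were lower in the treated libraries, from EPCAM at 319.7, 274.3 and 302.3 CPM to PAX8, a lineage factor of the Müllerian epithelium, at 355.1, 54.3 and 47.8 CPM; their part in the results was not tested either. Of the 8 leukocyte, endothelial and fibroblast markers, 7 stayed below 1.5 CPM in all libraries, with COL3A1 at 0 in DMSO and Combo, and COL1A1 was between 5.51 and 5.69 CPM. The endothelial markers differed in direction, with PECAM1 higher in the treated libraries, at 0.47, 1.32 and 1.485 CPM, and VWF lower, at 0.69, 0.41 and 0.34 CPM. The transcripts of the inhibited proteins, RAC1 at 461.6, 589.7 and 576.6 CPM and EZH2 at 32.1, 12.4 and 15.2 CPM, do not check the labels, because the inhibitors act on protein.

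Replication starts from origins that the ORC proteins, CDC6 and CDT1 load with the ring-shaped MCM2 to MCM7 helicase in G1. CDC45 and the GINS complex then turn the loaded ring into the active helicase as S phase begins, PCNA clamps the polymerases to DNA, and FEN1 and LIG1 finish the lagging strand. The nucleotide supply (ribonucleotide reductase, thymidylate synthase, thymidine kinase, dUTPase) is made mostly in S phase, and E2F transcription factors, which bind a short GC-rich word in promoters, switch on most of these genes at the G1 to S transition. This is textbook background and not a result of these libraries.

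The promoters of these genes carried that word more often than promoters in general. An entry of 300 bases, from 250 before to 50 after the transcription start, was found in the RefSeq promoter table (build GRCh38.p14) for 35 of the 39 genes, not for MCM4, MCM5, POLD3 and RPA2. The search used the words TTTCCCGC, TTTCGCGC, TTTGGCGC and TTTGCCGC on both strands, overlapping matches included. A match was present in 20 of the 35 windows (57.1%), against 1164 of 35116 windows in the whole table (3.31%) and 910 of 22199 windows of protein-coding entries (4.10%). CCAAT, bound by NF-Y, was present on either strand in 21 of the 35 (60.0%), against 34.6% of the whole table. A match is a description of letters and not a tested binding site. The 250 bases before the start are printed for 4 genes, with matches to the E2F words in capitals. MCM6 and MCM7 are subunits of the same ring and differed in the direction of their ratio, LIG1 had the lowest ratio of the 39 genes, and E2F1 encodes the factor itself. All of these lie on the reverse strand and are written 5′ to 3′ along the gene: MCM6 at chr2:135876444-135876693, MCM7 at chr7:100101398-100101647, LIG1 at chr19:48170345-48170594 and E2F1 at chr20:33686386-33686635.
MCM6: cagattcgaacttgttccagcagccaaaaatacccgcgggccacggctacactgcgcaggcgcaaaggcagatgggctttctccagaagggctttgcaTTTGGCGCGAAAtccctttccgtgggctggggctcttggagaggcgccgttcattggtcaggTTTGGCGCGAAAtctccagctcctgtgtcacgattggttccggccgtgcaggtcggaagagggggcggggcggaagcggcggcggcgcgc
MCM7: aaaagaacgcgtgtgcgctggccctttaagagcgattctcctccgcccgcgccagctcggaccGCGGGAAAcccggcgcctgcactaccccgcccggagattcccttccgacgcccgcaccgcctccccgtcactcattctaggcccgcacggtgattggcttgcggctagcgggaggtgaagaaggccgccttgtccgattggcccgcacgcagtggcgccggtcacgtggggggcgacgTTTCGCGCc
LIG1: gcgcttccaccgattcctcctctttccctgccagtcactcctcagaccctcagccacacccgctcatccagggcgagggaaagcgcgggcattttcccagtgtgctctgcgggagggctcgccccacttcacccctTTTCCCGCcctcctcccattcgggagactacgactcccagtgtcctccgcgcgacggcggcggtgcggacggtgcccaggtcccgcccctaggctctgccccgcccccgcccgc
E2F1: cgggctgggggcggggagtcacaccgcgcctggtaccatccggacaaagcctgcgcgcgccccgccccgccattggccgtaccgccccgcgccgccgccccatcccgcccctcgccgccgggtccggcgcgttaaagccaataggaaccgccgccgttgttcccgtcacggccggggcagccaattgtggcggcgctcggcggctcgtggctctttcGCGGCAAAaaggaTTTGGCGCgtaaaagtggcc
MCM6 carried 4 matches, which overlap into 2 runs of capitals. MCM7 and E2F1 carried 2 each and LIG1 carried 1. The genes with and without an exact match to these words were not separated by their ratios. A near match counts as no word, as in the window of CDC45, where a stretch differs from TTTGGCGC in its last letter. The split therefore does not sort genes by E2F binding. The median log2 ratio of RAC1i over DMSO was -0.69 over the 20 genes with a word and -0.86 over the 15 without, and the ranges of both sets, -2.89 to 0.95 and -2.30 to 0.88, overlapped over most of their length. In Combo the medians were -0.60 with a word and -0.73 without.

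The next question was how the 39 transcripts differed between treated and untreated cells. UMIs were summed over all kept cells of a library, and the 39 genes together made up 1951, 1319 and 1380 CPM. In RAC1i, 24 of the 39 genes were lower than in DMSO by 1.5-fold or more, against 31.3% of the 7702 genes whose mean over the libraries was at least 10 CPM, and 3 were higher by that fold, against 23.8%. In Combo, 20 of the 39 were lower, against 29.6% of all genes, and 3 were higher, against 22.7%. The median log2 ratio of the 39 genes was -0.77 in RAC1i and -0.69 in Combo, while that of all genes was -0.10 and -0.07. Both comparisons use the same DMSO library, so they are not independent of each other. Scaling by DESeq2's size factors would raise every log2 ratio over DMSO, the all-gene median included, by 0.11 in RAC1i and 0.12 in Combo. With that scaling 21 of the 39 were lower by 1.5-fold in RAC1i (27.4% of all genes) and 19 in Combo (25.6%). Of the 39 genes, 31 reached 10 CPM in the mean, and the 8 that did not (ORC1, CDT1, GINS1, GINS3, POLA1, POLD1, POLE2 and UHRF1) are kept in every count except where the 31 are named. Of those 31, which passed the same minimum as all genes, 18 were lower and 2 higher in RAC1i, and 16 were lower and 2 higher in Combo. Fewer cells in S phase and fewer transcripts per S phase cell cannot be told apart from these sums.

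**Figure D1:**
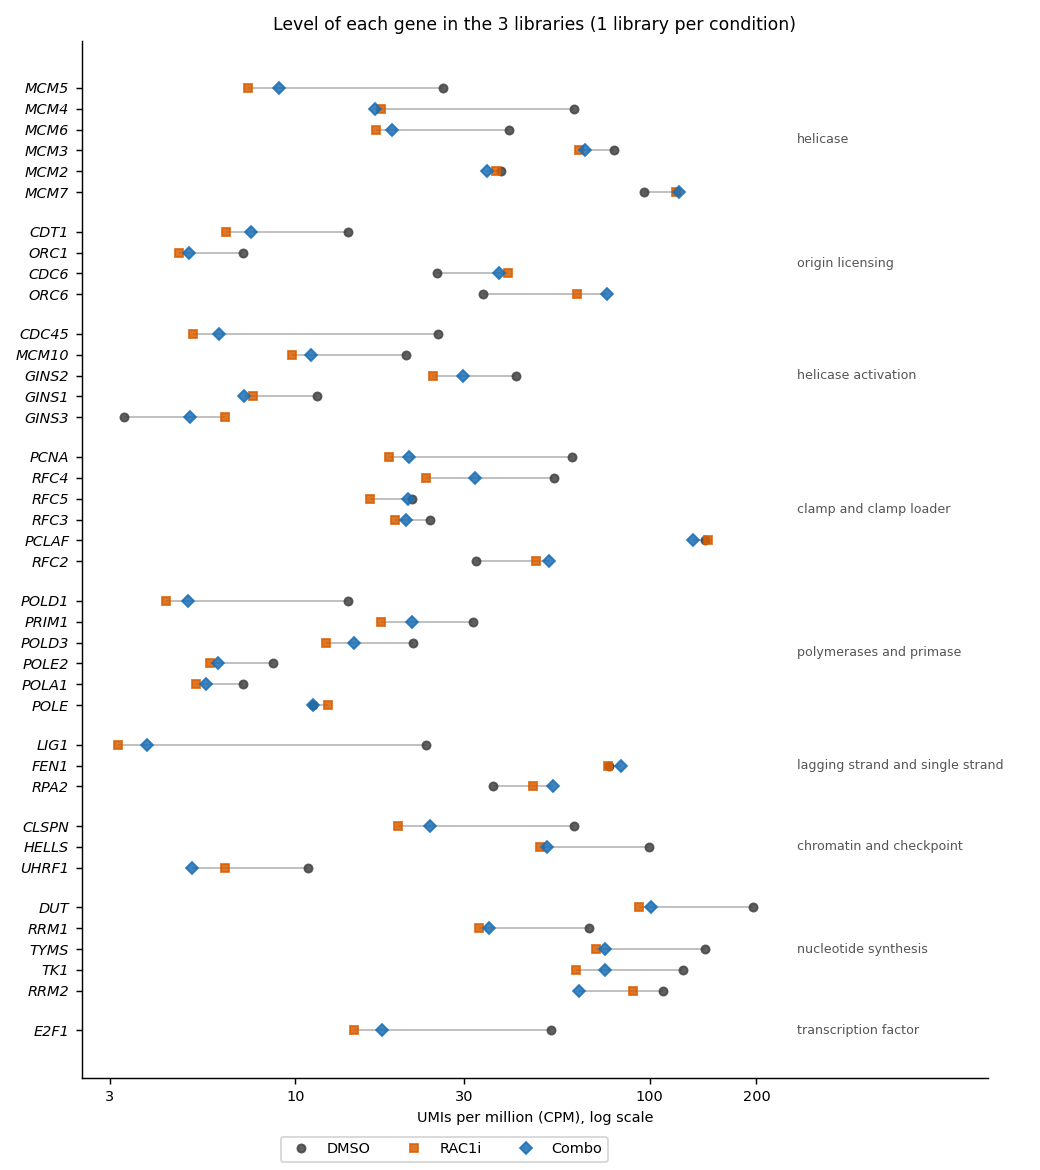
Level of each of the 39 genes in CPM (log scale) in the DMSO, RAC1i and Combo libraries, grouped by role, with a line from the lowest to the highest library. The RAC1i and Combo points lie close together for most genes, and the DMSO point lies to their right for PCNA, CDC45, LIG1, E2F1 and the nucleotide synthesis genes but to their left for MCM7, CDC6, ORC6, GINS3, RFC2 and RPA2.

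The 6 subunits of the helicase ring, which are needed in equal numbers in the finished complex, did not differ together. MCM4 was at 61.0 CPM in DMSO, 17.4 in RAC1i and 16.7 in Combo, 3.50-fold and 3.64-fold lower than in DMSO. MCM5 was at 26.1, 7.36 and 8.98 CPM, 3.54-fold and 2.90-fold lower. MCM6 was at 40.1, 16.9 and 18.8 CPM, 2.38-fold and 2.14-fold lower. These subunits were thus below DMSO in both treated libraries by more than 1.5-fold, whereas the other subunits were not. MCM3 was at 79.4, 63.3 and 65.4 CPM, with log2 ratios of -0.33 and -0.28. MCM2 was at 37.96, 36.81 and 34.68 CPM, and its log2 ratio of RAC1i over DMSO, -0.04, turns above 0 when scaled by edgeR's TMM or DESeq2's size factors. MCM7 was higher in the treated libraries, at 96.1 CPM in DMSO, 118.8 in RAC1i and 120.7 in Combo, a ratio of 1.24 (1.21 to 1.26) and 1.26 (1.23 to 1.28). MCM7 lies on chromosome 7 (100092233 to 100101940, reverse strand, GRCh38, GENCODE 44) and MCM6 on chromosome 2 (135839626 to 135876443, reverse strand).

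The licensing genes split as well. ORC6, the smallest subunit of the origin recognition complex, was at 33.8 CPM in DMSO, 62.2 in RAC1i and 75.6 in Combo, 1.84-fold (1.79 to 1.90) and 2.24-fold (2.18 to 2.30) higher. CDC6, which recruits the helicase to ORC, was at 25.1, 39.7 and 37.6 CPM, a ratio of 1.58 (1.53 to 1.64) and 1.498 (1.446 to 1.552), with the Combo ratio just under the fold of 1.5. CDT1, the partner of CDC6 in loading, was instead lower, at 14.1, 6.36 and 7.51 CPM, by 2.21-fold and 1.87-fold. ORC1 was at 7.11, 4.70 and 5.00 CPM, 1.51-fold and 1.42-fold lower. Among the genes that activate the loaded ring, CDC45 had the lowest ratios to DMSO. It was at 25.3 CPM in DMSO, 5.15 in RAC1i and 6.11 in Combo, 4.91-fold and 4.14-fold lower. MCM10, which acts beside CDC45, was at 20.5, 9.77 and 11.1 CPM, 2.10-fold and 1.85-fold lower. The GINS genes, whose products form 1 complex, differed in direction. GINS2 was at 41.9, 24.5 and 29.7 CPM and GINS1 at 11.6, 7.62 and 7.16 CPM, both lower in the treated libraries. GINS3 was at 3.29, 6.35 and 5.05 CPM, 1.93-fold (1.76 to 2.12) and 1.53-fold (1.39 to 1.69) higher, on only 655 UMIs in DMSO.

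PCNA, the sliding clamp, was at 60.3 CPM in DMSO, 18.4 in RAC1i and 21.0 in Combo, 3.27-fold and 2.88-fold lower. PCLAF, a small protein that binds PCNA, did not move with it: it was at 143.0, 146.2 and 132.1 CPM, with log2 ratios of 0.03 and -0.11, of which the first turns below 0 when mitochondrial UMIs are left out of the totals and the second above 0 with DESeq2's size factors. The clamp loader genes also spread. RFC4 was at 53.7, 23.4 and 32.1 CPM, 2.30-fold and 1.67-fold lower, RFC3 and RFC5 stayed within 1.5-fold of DMSO with log2 ratios between -0.39 and -0.03, and RFC2 was at 32.3, 47.7 and 52.1 CPM, a ratio of 1.48 (1.43 to 1.52) and 1.61 (1.56 to 1.66). RFC5 in Combo was at 0.98 of DMSO (0.94 to 1.02), a ratio that passes 1 with TMM or DESeq2's size factors.

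Of the polymerase genes, POLD1, the catalytic subunit of polymerase delta, was at 14.1, 4.32 and 4.99 CPM, 3.26-fold and 2.83-fold lower. PRIM1, the catalytic primase subunit, was at 31.8, 17.5 and 21.4 CPM, 1.82-fold and 1.48-fold lower, and POLD3 was at 21.6, 12.2 and 14.6 CPM, 1.77-fold and 1.47-fold lower. POLE, the catalytic subunit of polymerase epsilon, differed little, at 11.25, 12.36 and 11.20 CPM. POLA1, of the polymerase that primes synthesis, and POLE2, the second subunit of polymerase epsilon, had log2 ratios from -0.59 to -0.34. The lagging strand genes differed widely. LIG1, the ligase that seals Okazaki fragments, had the lowest ratio of the 39 genes in both comparisons. It was at 23.4 CPM in DMSO (4665 UMIs), 3.16 in RAC1i (743 UMIs) and 3.81 in Combo (811 UMIs), 7.41-fold and 6.15-fold lower. FEN1, the nuclease that prepares the same ends for LIG1, was nearly level, at 76.7, 76.2 and 82.9 CPM, and RPA2, a subunit of the single-strand binding protein, was at 36.1, 47.0 and 53.3 CPM, 1.30-fold and 1.48-fold higher. PRIM1, POLD3, FEN1 and HELLS share exon sequence on the same strand with a neighbouring annotated gene (NACA, LIPT2-AS1, FADS2 and ENSG00000244332), so their counts are uncertain to the extent that reads in the overlap were discarded or assigned to the neighbour.

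**Figure D2:**
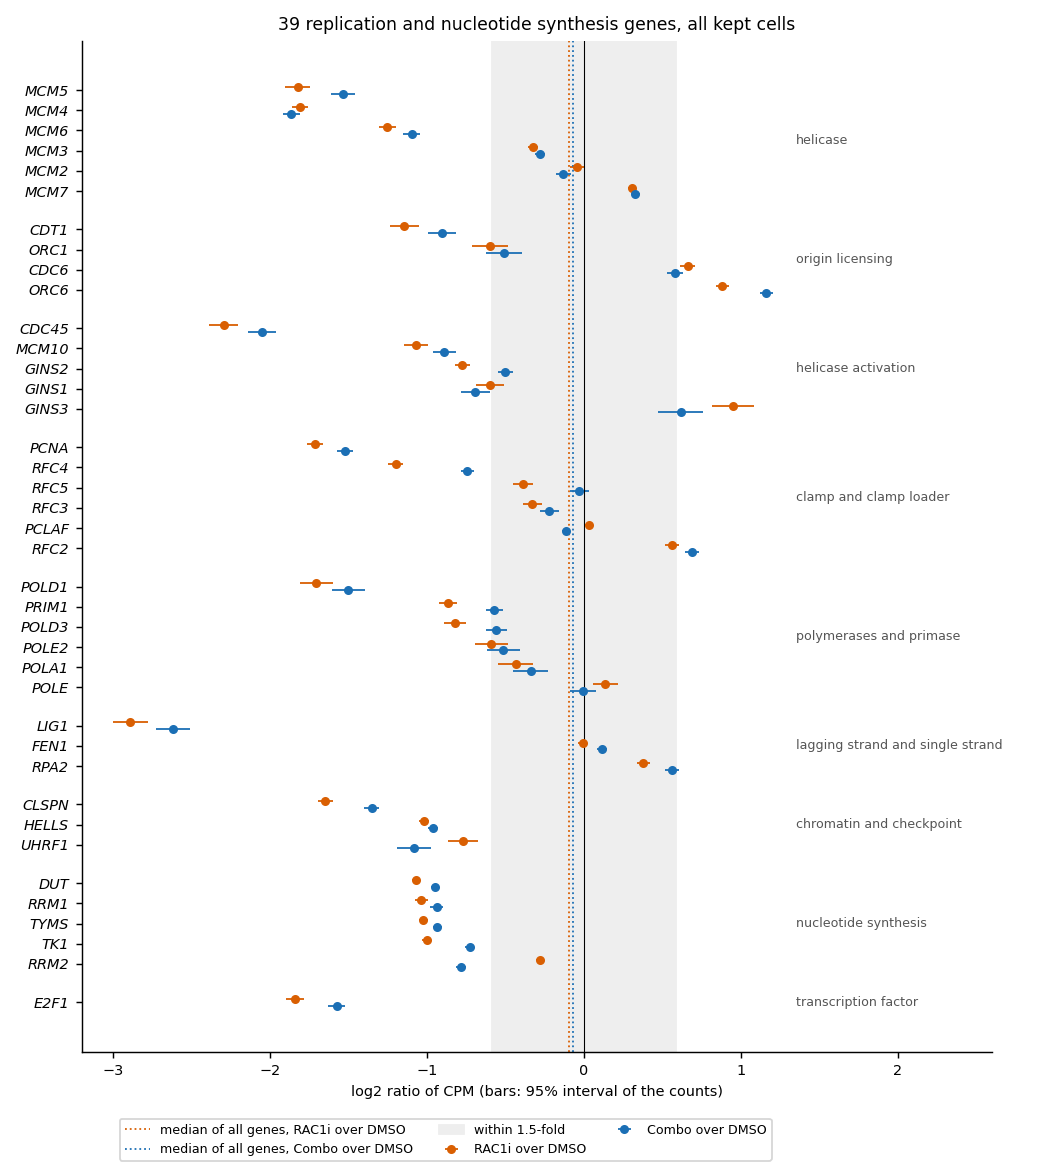
Log2 ratio of CPM over DMSO for the 39 genes in RAC1i and Combo, with 95% counting intervals, the range within 1.5-fold shaded and the median of all genes dotted. LIG1 (-2.89 and -2.62) and CDC45 (-2.30 and -2.05) lie farthest to the left, ORC6 (0.88 and 1.16), GINS3 (0.95 and 0.62), CDC6 (0.66 and 0.58) and RFC2 (0.56 and 0.69) farthest to the right, and genes of the same complex are spread between them.

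The 3 chromatin and checkpoint genes were lower in both treated libraries by more than 1.5-fold. CLSPN, the mediator of the replication checkpoint, was at 61.3, 19.6 and 24.0 CPM, 3.13-fold and 2.56-fold lower. HELLS, a chromatin remodeller, was at 99.7, 49.2 and 51.2 CPM, and UHRF1, which couples DNA methylation to replication, was at 10.8, 6.35 and 5.11 CPM. Over all kept cells, the nucleotide synthesis genes had the narrowest range of ratios of any role with several genes. DUT, the dUTPase, was at 195.1, 92.97 and 100.9 CPM. TYMS, thymidylate synthase, was at 143.0, 70.3 and 74.8 CPM. TK1, thymidine kinase, was at 124.0, 61.9 and 74.9 CPM, and RRM1, the large subunit of ribonucleotide reductase, was at 67.5, 33.0 and 35.2 CPM. The log2 ratios of these genes lay between -1.07 and -1.002 in RAC1i and between -0.95 and -0.73 in Combo. RRM2, the small subunit of the same enzyme, stood apart from RRM1 in RAC1i. It was at 108.8 CPM in DMSO, 89.6 in RAC1i and 63.3 in Combo, with log2 ratios of -0.28 and -0.78. In cells of 15000 to 30000 UMIs, a comparison added after the data had been seen, its ratio of RAC1i over DMSO was above 0 (0.08) and that of Combo was -0.38. In those cells the nucleotide synthesis genes ranged from -0.99 (DUT) to 0.08 in RAC1i and from -1.19 (RRM1) to -0.34 (TK1) in Combo. The chromatin and checkpoint genes had narrower ranges there, -1.44 to -0.64 and -1.28 to -0.78. E2F1 itself was at 52.5, 14.7 and 17.6 CPM, 3.58-fold and 2.98-fold lower.

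For genes outside the 39 from the same pathways and from the cell cycle, the median ratios over DMSO were also below those of all genes, -0.10 in RAC1i and -0.07 in Combo. These lists hold only genes with a mean of at least 10 CPM, so their values depend on that filter. Some genes, such as POLD4, pass it only through DMSO, and others, such as CDC25A, only through the treated libraries. Their shares lower by 1.5-fold are to be read beside the 31.3% and 29.6% of all genes. In RAC1i these shares were 47.2% for origin and fork genes, 59.3% for nucleotide synthesis genes, 47.1% for other E2F targets and 50.0% for G2 and mitosis genes. In Combo they were 38.9%, 48.1%, 35.3% and 50.0%, of which that of the E2F targets, 6 of 17, was near the share of all genes. Of 43 other origin and fork genes, 36 reached 10 CPM, of which 17 were lower and 4 higher by 1.5-fold in RAC1i and 14 lower and 4 higher in Combo, with median log2 ratios of -0.52 and -0.46. POLD4, the small subunit of polymerase delta, was at 46.4, 6.22 and 7.10 CPM and POLE3, a histone-fold subunit of polymerase epsilon, at 30.9, 87.4 and 88.0 CPM, the lowest and highest ratios of this list. Of 32 other nucleotide synthesis genes, 27 reached 10 CPM, of which 16 were lower and 1 higher in RAC1i and 13 lower and 2 higher in Combo (medians -0.67 and -0.44). SHMT1, a folate enzyme, was at 42.3, 11.1 and 13.0 CPM, MTHFD2, a mitochondrial folate enzyme, at 175.0, 54.7 and 47.8, and DGUOK, the mitochondrial deoxyguanosine kinase, at 115.6, 346.0 and 342.2. Of 25 other E2F targets of S phase, 17 reached 10 CPM, of which 8 were lower and 1 higher in RAC1i and 6 lower and 1 higher in Combo (medians -0.51 and -0.37). CDC25A, the phosphatase that activates CDK2, had the highest ratios of this list, at 9.59, 24.1 and 20.9 CPM. Of 10 G2 and mitosis genes, 5 were lower and none was higher in either treated library (medians -0.38 and -0.47). CENPF and TOP2A, a kinetochore protein and a topoisomerase, had the lowest ratios, at 266.7, 114.6 and 122.3 CPM and at 124.3, 57.2 and 52.6 CPM, and HMMR had the highest, at 69.3, 89.5 and 84.3 CPM. MKI67, a general marker of cycling cells, was at 176.9, 65.6 and 68.4 CPM.

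Between Combo and RAC1i, which differ by the EZH2 inhibitor, no gene of the 39 differed by 1.5-fold in either direction. That is near the share of all genes, of which 0.428% were lower and 0.182% higher by that fold. The median log2 ratio of Combo over RAC1i was 0.12 for the 39 genes against 0.02 for all genes, and 30 of the 39 ratios were above 0. This was not so in every selection of cells. In the 2411 Combo and 3616 RAC1i cells with 15000 to 30000 UMIs, chosen after the data had been seen, the median was -0.03, with that of all genes at -0.04, and 16 of the 39 were above 0. RFC4 had the highest ratio, 1.37 (1.33 to 1.42), and RRM2 the lowest, 0.71 (0.69 to 0.72). In the cells with 15000 to 30000 UMIs their log2 ratios were 0.23 and -0.46, against 0.46 and -0.50 over all cells, and TK1 had the highest ratio there, 0.40.

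The 39 genes were next described in the cells in which PCNA was detected. Cells of at least 5000 UMIs were thinned at random to 5000, and PCNA-high cells were those at or above the smallest PCNA count that no more than 25% of DMSO cells reached. That count was 1 UMI, so the class separates cells with a detected PCNA molecule from cells without, and it cannot be equated with S phase. A cell line holds no cell type that should lack PCNA, so the share of cells that free RNA in the droplets gives a PCNA UMI was not measured. The class held 1635 of 6725 DMSO cells (24.3%, exact interval 23.3 to 25.4), 751 of 9200 RAC1i cells (8.16%, 7.61 to 8.74) and 592 of 7354 Combo cells (8.05%, 7.44 to 8.70). Without thinning, PCNA was detected in 66.2%, 29.6% and 34.9% of these cells. The size of the difference moved with the count chosen: at the count that at most 10% of DMSO cells reach, the shares were 4.80%, 0.707% and 0.639%. Fewer PCNA-expressing cells and less PCNA per cell cannot be told apart from these shares. PCNA-high cells held more UMIs before thinning than the others, with medians of 29272, 26246 and 31988 in the order DMSO, RAC1i and Combo, where the other cells had 28683, 22715 and 27227.

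Within each library most of the other 38 genes were higher in PCNA-high than in other cells. In DMSO all 38 ratios were above 1, with a median log2 ratio of 0.55 where that of all genes was 0.00, and 18 of them by 1.5-fold or more, against 0.364% of all genes. In RAC1i 37 of 38 ratios were above 1 (median 0.46, all genes 0.08), 8 of them by 1.5-fold against 0.896% of all genes, and in Combo all 38 were (median 0.36, all genes 0.06), 7 of them by 1.5-fold against 0.312%. GINS3 was the exception in RAC1i, at 0.94 (0.77 to 1.13) of the level in other cells. The intervals of POLA1, POLD1 and POLE in RAC1i and of GINS3, POLD1 and POLE in Combo also covered 1, and MCM7 in RAC1i, at a log2 ratio of 0.06, lay below the median of all genes. ORC1 (1.78, 1.94 and 1.60), MCM10 (1.77, 1.60 and 1.56), CLSPN (1.65, 1.79 and 1.63), HELLS (1.61, 1.51 and 1.54) and UHRF1 (1.60, 1.53 and 1.595) were above 1.5 in every library. MCM7 was at 1.43 in DMSO but at 1.05 and 1.06 in the treated libraries, and RRM2 was at 1.63, 1.12 and 1.29. PCNA itself, which chose the cells, was 2.69-fold, 5.14-fold and 3.95-fold higher in PCNA-high than in other cells. The 2 classes were therefore not equally far apart in every library. The cells of a library are not replicates, and the differences between libraries in these ratios were not tested. Less the median of all genes, the order of the libraries in the median over the 38 genes changed at a stricter PCNA count.

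Between conditions, the ratios within PCNA-high cells were close to those over all cells; how far cells with a PCNA UMI by chance or from free RNA bring them together was not tested. PCNA itself, which chose the cells, was at 114.9, 69.3 and 65.9 CPM in this class. The PCNA-high cells were therefore not matched for PCNA between libraries. Of the 38 genes, 22 were lower in RAC1i than in DMSO by 1.5-fold, against 27.2% of all genes, and 1 was higher, against 24.2%. In Combo 21 were lower, against 26.3%, and 1 was higher, against 23.1%. The medians were -0.76 and -0.69, against -0.02 and -0.01 for all genes. LIG1 was at 28.8 CPM in DMSO, 4.19 in RAC1i and 5.46 in Combo PCNA-high cells, CDC45 at 37.2, 7.70 and 8.73, MCM4 at 84.2, 23.1 and 22.4, and E2F1 at 73.9, 22.2 and 24.4. Each of these was at least 3.03-fold below DMSO in both treated libraries. MCM7 was nearly level, at 124.4, 122.6 and 126.0 CPM, and ORC6 was the gene past 1.5-fold higher, at 41.9, 70.2 and 87.5. CDC6, RFC2, RPA2 and GINS3 were above DMSO by less than that, with ratios from 1.18 to 1.499. RRM2 was further below DMSO than over all cells, at 154.3, 97.8 and 78.3 CPM, with log2 ratios of -0.66 and -0.98. Less the median of all genes, the median of the 38 genes was -0.74 in RAC1i and -0.67 in Combo. With each library's own 25% of cells highest in PCNA it was -1.13 and -0.94, and with the stricter PCNA count it was -0.82 in RAC1i and -0.35 in Combo, where only 65 and 47 cells remained. Between Combo and RAC1i PCNA-high cells none of the 38 genes passed 1.5-fold. That is near the share of all genes, of which 0.636% were lower and 0.364% higher. At the stricter count, on those 65 and 47 cells, 7 of the 38 were higher, against 4.92% of all genes, and 0 were lower, against 8.21%.

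**Figure D3:**
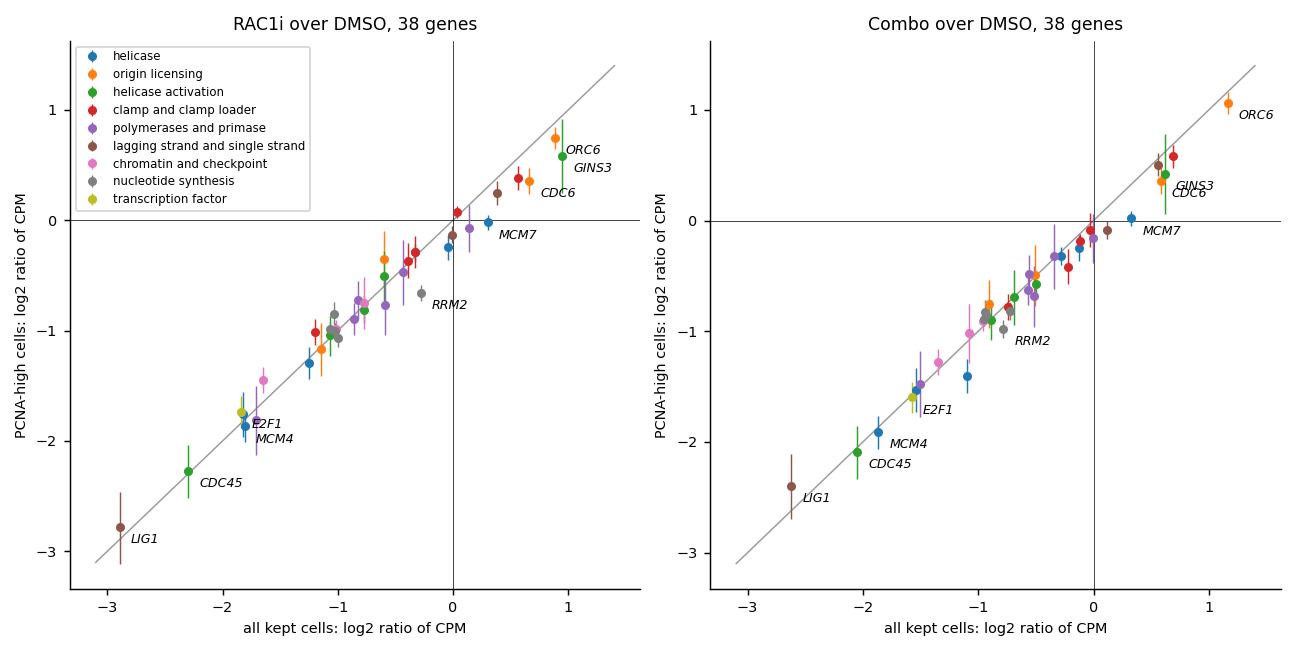
Log2 ratio of CPM over DMSO within PCNA-high cells (vertical, 95% counting intervals) against the same ratio over all kept cells (horizontal) for 38 genes, with PCNA left out, in RAC1i and Combo; the grey line marks equal values. Most genes lie near the line, and RRM2, MCM7, CDC6 and GINS3 are among those below it in both panels.

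To place the genes in the cycle, cells were also classed by 10 G2 and mitosis genes. G2/M-high cells reached a thinned sum of 15 UMIs, the smallest count that at most 10% of DMSO cells reach. The DMSO share was therefore set by that choice. The class held 9.13% of DMSO, 4.76% of RAC1i and 4.38% of Combo cells. Of the 10 classing genes, 5 were lower by 1.5-fold in each treated library, so the same count need not pick like cells in every library. No other count was tried. In DMSO most genes of licensing and of the helicase were lower in G2/M-high than in other cells. CDC6 was at 0.55 of the level in other cells, MCM5 at 0.55, MCM6 at 0.58, CDT1 at 0.64, ORC1 at 0.64 and MCM3 at 0.65, while MCM7 at 1.08 and ORC6 at 1.12 were not lower. E2F1 was at 0.57. Genes of nucleotide synthesis were higher there, TYMS at 1.62, RRM1 at 1.42, TK1 at 1.36 and RRM2 at 1.29, and so were GINS1 at 1.53 and PCLAF at 1.31. MCM2 to MCM6 were below 1 in the treated libraries too, with MCM5 at 0.49 in RAC1i and 0.40 in Combo and MCM6 at 0.47 and 0.43. Of the nucleotide synthesis genes, TYMS was at 1.06 and 0.99 there, RRM1 at 1.10 and 1.02, TK1 at 1.08 and 0.99 and RRM2 at 1.17 and 0.99. DUT was at 1.09 in DMSO and at 0.83 and 0.85 in the treated libraries. PCLAF was at 0.75 and 0.72, on the other side of 1 from DMSO, and MCM7 at 0.745 and 0.75. Differences between libraries in these ratios were not tested. The 5 nucleotide synthesis genes had median log2 ratios of 0.44, 0.11 and -0.02, where those of all genes were 0.07, 0.06 and 0.08.

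**Figure D4:**
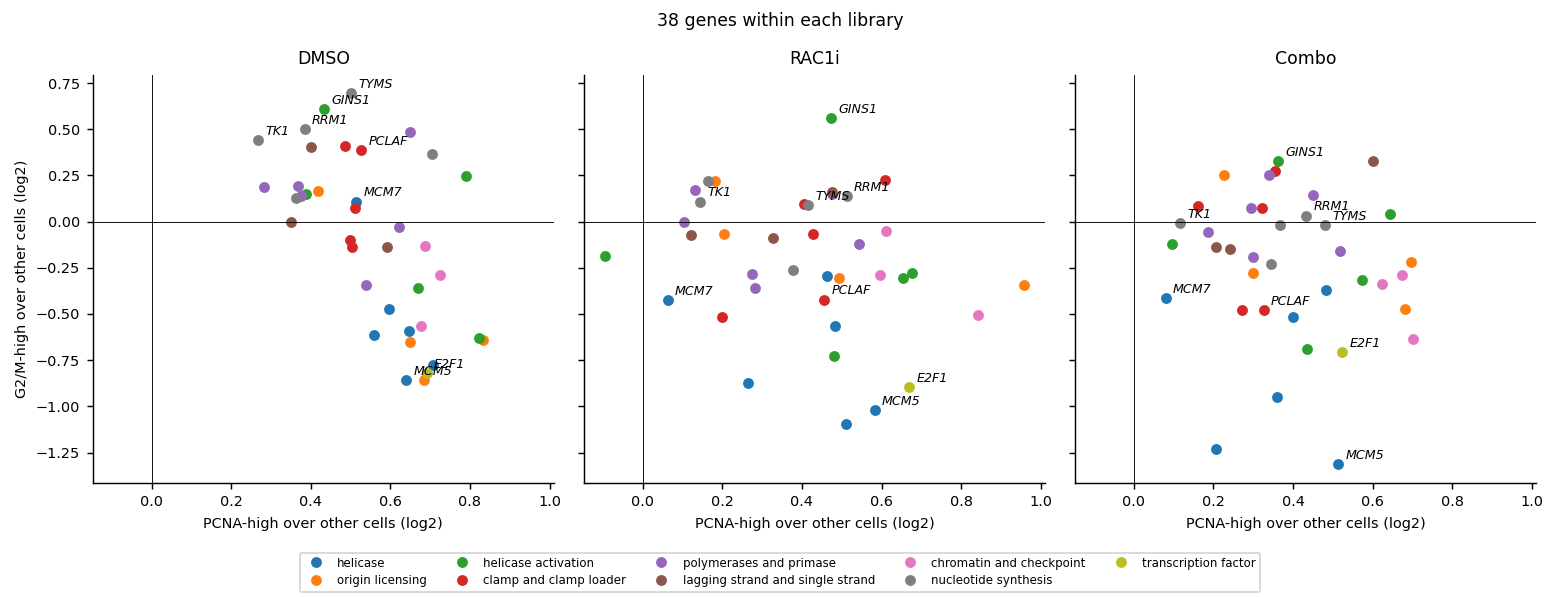
Log2 ratio of each of 38 genes in PCNA-high over other cells (horizontal) and in G2/M-high over other cells (vertical) within the DMSO, RAC1i and Combo libraries, coloured by role. All genes but GINS3 in RAC1i lie right of 0, MCM5, MCM6 and E2F1 are among the 4 lowest in each panel, and TYMS, RRM1 and TK1 lie at 0.44 to 0.70 on the vertical axis in DMSO and at 0.14 or below in the treated libraries.

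Counted cell by cell, the libraries differed most in the cells with many UMIs of these genes. In cells thinned to 5000 UMIs, the sum of the 38 genes without PCNA had a median of 8 in DMSO cells and 6 in those of both treated libraries. The 10th percentile was 2 in every library, whereas the 90th percentile was 18 in DMSO and 11 in both treated libraries. The 90th percentile of DMSO was taken as a cut, so the DMSO share that reaches it was set by that choice. At least 18 UMIs were reached by 736 of 6725 DMSO cells (10.9%, 10.2 to 11.7), 89 of 9200 RAC1i cells (0.967%, 0.778 to 1.19) and 81 of 7354 Combo cells (1.10%, 0.876 to 1.37). Cells without any UMI of the 38 genes were few in all libraries, 1.99% in DMSO, 1.02% in RAC1i and 1.33% in Combo. PCNA-high and G2/M-high cells were also left out, a comparison added after the data had been seen. The median log2 ratio over the 39 genes was then -0.65 in RAC1i and -0.55 in Combo, against -0.09 and -0.07 for all genes. Lower by 1.5-fold were 21 in RAC1i and 18 in Combo, against 31.6% and 29.8% of all genes. Higher by that fold were 4 and 5, against 24.1% and 22.9%. PCNA is among the 39 although it chose the cells, and cells without a thinned PCNA UMI can still express it.

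**Figure D5:**
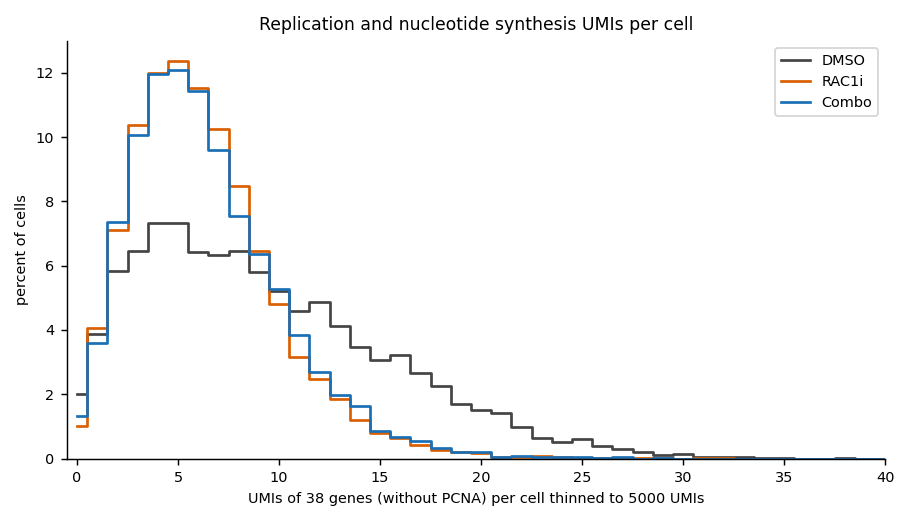
Percent of cells (vertical) with each number of UMIs of 38 replication and nucleotide synthesis genes (horizontal) after thinning each cell to 5000 UMIs, in DMSO, RAC1i and Combo. The DMSO curve is broader and reaches 18 UMIs or more in 10.9% of cells, and the RAC1i and Combo curves nearly coincide and end earlier.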

How the data were processed

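OVCAR3 cells treated for 48 h were profiled with a droplet 3′ kit, and per the labels and the study's methods the authors made the deposited UMI counts per gene and barcode with Cell Ranger 4.0.0 on GRCh38; the counts were not normalized. Following the study's methods, a barcode was kept if it had more than 1000 genes, no more than 20% of its UMIs from mitochondrial genes, and log10 genes over log10 UMIs above 0.8; doublets were not called, and leaving out the 8% of cells with most UMIs in each library was tried instead. The authors' batch correction, regression of cell cycle scores and clusters were not used. Kept cells held 199063947 (DMSO), 234969742 (RAC1i) and 212792113 (Combo) UMIs, and each of the 39 genes had at least 655, 743 and 811 UMIs per library, which sets the precision of the ratios.

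UMIs were summed per library and expressed as CPM. Intervals were exact Poisson (levels), exact conditional binomial (ratios) and Clopper-Pearson (shares), at 95%, for counting error only. Because there was 1 library per condition, no test was run. A gene counted as lower or higher at 1.5-fold. The script for ratios was tested on simulated data. The members, lists and rules were chosen with earlier results of these data known. Every one of the 39 genes was named by rule. From each list of other pathway genes, those with the highest and lowest ratio in each comparison were named, along with RAC1 and EZH2; 1 result under this rule is not reported here. MKI67 and the markers EPCAM, PAX8, PECAM1, VWF, COL1A1 and COL3A1 were chosen after their values were seen. Positions came from GENCODE 44, which holds 36366 of the 36601 gene IDs (99.4%), and promoter sequences from RefSeq. Reads shared with processed pseudogenes could not be assessed. Alternatives were planned for the cell filters, scaling, expression minimum, fold and PCNA-high class. The alternatives by cells of 15000 to 30000 UMIs, by members that passed the minimum, by E2F targets and without PCNA-high and G2/M-high cells were chosen after seeing the data. Scaling alternatives used edgeR 4.0.16 and DESeq2 1.42.0, and the rest was run in Python 3.11.15 with numpy 2.4.6 and scipy 1.17.1.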

Additional observations from a re-analysis of the deposited data

How the results depend on the processing

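No paired analysis was possible because each condition has 1 library, and for the same reason no replicate could be left out. Less the median of all genes, no median over the members changed sign under any alternative run, but the members' median of Combo over RAC1i itself, 0.12, became -0.03 in cells of 15000 to 30000 UMIs. Less the median of all genes, the members' median over all cells was -0.68 (RAC1i over DMSO), -0.62 (Combo over DMSO) and 0.11 (Combo over RAC1i). It became -0.84 in RAC1i with the mean over cells, and -0.77 over the 31 members that passed the minimum. Some members, such as LIG1 at 23.4, 3.16 and 3.81 CPM, pass that minimum only through DMSO, so the value over them depends on the filter. The members' median less that of all genes became -0.57 and -0.51 with a minimum of 10 CPM in the higher library. It became -0.59 and -0.57 in cells of 15000 to 30000 UMIs (Combo over RAC1i 0.017), and -0.56 and -0.49 without PCNA-high and G2/M-high cells. The 3 members higher in RAC1i became 5 at a ratio of 5 to 4 (33.1% of all genes) and 0 at a fold of 2 (13.3%). The 3 higher in Combo became 5 with TMM (25.8%), 5 with DESeq2's size factors (26.8%), 1 with the mean over cells (24.4%), 6 at a ratio of 5 to 4 (32.6%), 1 at a fold of 2 (12.2%) and 5 without PCNA-high and G2/M-high cells (22.9%), and the 20 lower became 10 at a fold of 2 (17.2%). Combo over RAC1i had 2 lower and 2 higher at a ratio of 5 to 4, near the 4.65% and 5.00% of all genes.

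The log2 ratio of the share of PCNA-high cells, -1.57 in RAC1i and -1.60 in Combo, was -2.77 and -2.91 at the count that at most 10% of DMSO cells reach, -2.50 and -2.39 after thinning to 10000 UMIs, and -1.43 in Combo with another seed. Within PCNA-high cells the median less that of all genes was -1.13 and -0.94 in each library's top 25% by PCNA, -0.93 in RAC1i in the top 25% by other E2F targets, and -0.82 and -0.35 at the stricter count. The 1 member higher in RAC1i became 2 with a mitochondrial limit of 10%, without the 8% of cells with most UMIs or with another seed (24.1% to 24.2% of all genes), and 4 at a ratio of 5 to 4 (34.3%). The 1 higher in Combo became 3 at the stricter count (23.7%), 3 at 10000 UMIs (23.2%), 2 with another seed (23.5%) and 5 at a ratio of 5 to 4 (34.3%). Combo over RAC1i had 7, 1 and 3 of 38 higher at the stricter count, 10000 UMIs and a ratio of 5 to 4, beside 4.92%, 1.43% and 5.23% of all genes, the first on only 65 RAC1i and 47 Combo cells. Also less the median of all genes, PCNA-high over other cells was 0.55, 0.38 and 0.30 (DMSO, RAC1i, Combo), and 0.72, 0.63 and 0.76 at the stricter count and 0.71, 0.64 and 0.49 at 10000 UMIs. Of 390 single-gene values each, 205 (RAC1i over DMSO), 213 (Combo over DMSO) and 56 (Combo over RAC1i) moved by more than their counting interval. TMM, DESeq2's size factors and totals without mitochondrial genes shift every gene of a comparison alike. These shifts were 0.08, 0.11 and -0.07 in RAC1i over DMSO and 0.09, 0.12 and -0.07 in Combo over DMSO. In Combo over RAC1i they were 0.011, 0.002 and -0.002. Moves under these scalings follow from the shift, and the cause of the other moves was not tested.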

Other observations

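Levels were also computed in the barcodes left out by the cell filter. Per 1e6 UMIs outside mitochondrial genes, the 39 genes made up 1980 in the 2540 left-out DMSO barcodes, 1243 in the 1557 of RAC1i and 1326 in the 1518 of Combo, against 2079, 1343 and 1404 in the kept cells of the same libraries. In DMSO, 1592 of the left-out barcodes exceeded 20% mitochondrial UMIs, against 534 in RAC1i and 508 in Combo.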
